A study of Mus musculus with 2 samples.

Results

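The T and NK lineage cells described here are 73 of 14068 cell barcodes of Kit-selected mouse bone marrow, 38 of 7098 in a control library and 35 of 6970 in a library labelled Utx-deleted. They were chosen by their RNA. A barcode was kept with at least 500 detected genes, under 10% mitochondrial UMIs (unique molecular identifiers, each standing for 1 captured RNA molecule) and no mixture of both sample hashtags. It was taken as a T or NK lineage cell when Cd3e, Cd3d, Cd3g, Klrd1, Ncr1 and Il2rb together reached 5 UMIs, the B-cell gene Cd79a was at 0, and neutrophil granule transcripts were nearly absent. These limits were under 1% of UMIs for Ltf, Camp, Ngp, S100a8, S100a9 and Lcn2 together, and under 0.5% for Elane, Prtn3 and Ctsg together. The levels of these genes in the chosen cells therefore describe the choice and support nothing.

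Both libraries are CD45.2+ Kit+ bone marrow of mice taken 10 weeks after transplantation, profiled by CITE-seq, in which messenger RNA and DNA-barcoded antibodies are counted in the same droplets. One group is labelled control and the other Utx-deleted. The labels used here give no strain, sex, driver of the deletion or number of animals, and do not say what the 2 hashtags, antibodies that mark pools of cells, stand for. CD45.2 is an allelic form of a blood cell surface protein that is used to tell donor from host cells. Utx (Kdm6a) encodes a histone H3 lysine 27 demethylase that is part of the complexes built on the methyltransferases MLL3 (Kmt2c) and MLL4 (Kmt2d), the subject of the series title. With 1 library in each group there is no replicate and no test, so each difference is one between these libraries. All intervals are exact 95% intervals that cover counting error only.

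T cells carry an antigen receptor, whose signal passes through the CD3 chains, while NK cells lack CD3 and read a balance of activating and inhibitory receptors. In the mouse many of those receptors are lectin-like proteins of the NK gene complex, among them NKG2D (Klrk1), NK1.1 (Klrb1c), the CD94 (Klrd1) and NKG2 (Klrc1, Klrc2) pairs and the Ly49 family (Klra genes). Some T cells, including NKT, gamma-delta and certain memory T cells, also use these receptors, together with the interleukin-2 and interleukin-15 receptor chain encoded by Il2rb. Mature T and NK cells are not known for high Kit, so they are a minor component of a Kit selection.

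The sequences shown here are the 250 bases before the RefSeq start of 3 NK receptor genes that the rule did not use and whose RNA is compared below, all on mouse chromosome 6. They are shown because these genes were higher together in one library. The capitals mark TGTGGT or its reverse complement ACCACA, the core motif of RUNX factors such as RUNX3, and the sequences are those of RefSeq on GRCm38.p6. The motif was found in this window in 8 of the 16 genes found among 19 looked up, which were Klrk1, Klrb1c, Ncr1, Klrc1, Klrc2, Klre1, Nkg7 and Xcl1. It was not found for the other 8, which include Klra7 and Klra9, higher in the same library, and the 3 shown were picked from the genes with a match. Of all 32851 windows of this length, 14.05% hold it. A match describes the letters only and is no evidence of binding. Klrk1 lies at chr6:129623865-129624114 (minus strand), Klrb1c at chr6:128788642-128788891 (minus strand) and Klre1 at chr6:129577963-129578212 (plus strand).
Klrk1: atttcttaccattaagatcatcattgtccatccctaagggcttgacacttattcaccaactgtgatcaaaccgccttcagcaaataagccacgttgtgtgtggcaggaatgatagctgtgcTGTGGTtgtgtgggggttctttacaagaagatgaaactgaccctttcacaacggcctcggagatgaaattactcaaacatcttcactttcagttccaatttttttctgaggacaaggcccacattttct
Klrb1c: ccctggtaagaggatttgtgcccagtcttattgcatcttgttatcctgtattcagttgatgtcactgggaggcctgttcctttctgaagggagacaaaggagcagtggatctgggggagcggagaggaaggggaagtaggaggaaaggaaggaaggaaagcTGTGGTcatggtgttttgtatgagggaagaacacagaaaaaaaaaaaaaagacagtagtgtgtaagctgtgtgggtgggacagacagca
Klre1: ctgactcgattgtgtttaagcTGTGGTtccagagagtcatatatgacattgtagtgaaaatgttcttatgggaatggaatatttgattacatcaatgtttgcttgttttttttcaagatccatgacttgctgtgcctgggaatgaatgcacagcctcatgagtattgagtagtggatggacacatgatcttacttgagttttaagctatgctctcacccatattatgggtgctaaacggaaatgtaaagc

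Depth was alike in the 2 libraries. They held 7827 and 7883 barcodes and 122130256 and 129736034 gene UMIs, and the kept barcodes had medians of 12450.5 and 11363 UMIs. The T and NK lineage cells had medians of 8793 UMIs in the control library (range 4289 to 29103) and 7133 in the library labelled Utx-deleted (range 2593 to 21449). The libraries shared 17 barcode sequences, and none belonged to a T or NK lineage cell. Kdm6a RNA was not depleted in these cells, at 106 UMIs or 278 counts per 1e+06 UMIs (CPM; 227 to 336) in the control library and 78 UMIs or 267 CPM (211 to 333) in the other. Because 3′ counts cannot reveal the loss of an internal exon, this is no check of the deletion, and the library is called by its label throughout. Of 9 measured genes of the UTX and MLL complexes, 4 were higher and 5 lower in the library labelled Utx-deleted (median log2 ratio -0.05) over all 73 cells, with 1 past 2-fold lower. In CD3-bearing cells, a kind defined below, 2 of 8 measured were higher and 6 lower, 2 of them past 2-fold (median -0.40, limits -1.29 to 0.59). Of all genes compared, 4.13% were past 2-fold lower over all 73 cells and 4.93% in CD3-bearing cells.

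T and NK lineage cells were rare in both libraries, at shares within counting error of each other. They made up 0.535% of kept control barcodes (0.379% to 0.734%) and 0.502% in the library labelled Utx-deleted (0.350% to 0.698%), a difference of -0.0332 percentage points (-0.2835 to 0.2171). The share was higher in Hashtag1 barcodes, at 0.741% (25 of 3375) and 0.676% (22 of 3256), than in Hashtag2 barcodes, at 0.354% (13 of 3674) and 0.327% (12 of 3674). The libraries differed in how many barcodes passed the granule limits, 972 of the control and 398 of the other, so that T and NK lineage cells were 3.91% and 8.79% of those. At the edge of the rule, a summed count of 5 or 6 UMIs was seen in 1 control cell and 3 cells of the other library, and a sum of 3 or 4 just outside it in 2 and 3 cells. Above the granule limits, 3 and 7 further barcodes reached 5 UMIs of the rule genes and were not counted.

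The Kit selection was checked on these cells. The CD117 (Kit) antibody tag had a median of 25.5 UMIs in the control cells (range 2 to 123) and 19 in the library labelled Utx-deleted (2 to 127). Other barcodes under the granule limits had medians of 153 and 105, granule-protease-rich progenitors 191 and 176.5, and neutrophil-rich barcodes 19 and 12. As a share of tag counts, CD117 had medians of 3.73% and 1.98% in the T and NK lineage cells, 13.5% and 13.4% in other barcodes under the granule limits, 10.6% and 14.3% in the granule-protease-rich progenitors, and 0.993% and 0.563% in neutrophil-rich barcodes. The T and NK lineage cells thus lay below the progenitors on both scales, and above the neutrophil-rich barcodes as a share of tags, whose totals differ between these kinds (medians of 780.5 and 824 against 2111.5 and 2103 UMIs). Kit RNA was seen in 10 of 21 and 10 of 23 CD3-bearing cells and in 8 of 13 and 5 of 7 NK-like cells, against 92.4% and 91.6% of the granule-protease-rich progenitors. Median depth was 8842 and 7247 UMIs in CD3-bearing cells, 7359 and 6352 in NK-like cells, and 31618 and 27030 in the progenitors. With each cell thinned to 2000 UMIs the shares were 14.3% and 21.7% in CD3-bearing cells, 15.4% and 42.9% in NK-like cells, 24.0% and 24.7% in the progenitors, 38.3% and 39.1% in other barcodes under the granule limits, and 6.68% and 5.30% in neutrophil-rich barcodes. At that depth the shares of CD3-bearing and control NK-like cells lay below those of the other barcodes under the granule limits, but apart from CD3-bearing cells of the library labelled Utx-deleted they rest on 3 cells or fewer. CD48, an adhesion molecule of lymphocytes and progenitors, was their most abundant tag with the hashtags left out of this ranking and of all tag totals and shares, at medians of 566.5 and 450 UMIs or 71.7% and 69.3% of tag counts.

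Kinds of cell were told apart by rules set after the data had been seen. CD3-bearing cells, with at least 3 UMIs of Cd3e, Cd3d and Cd3g, numbered 21 and 23. NK-like cells, with Klrd1 and Ncr1 together at 3 UMIs or more, CD3 under 3 and at least 1 UMI of a rule gene other than Klrd1, numbered 13 and 7. Ncr1, which encodes the NK receptor NKp46 and is part of this definition, had a UMI in all 13 and all 7 of them. Cd3e had none. Cd3d was seen in at least 1 NK-like cell of each library and Cd3g in at least 1 of the control library, so these cells are not free of CD3 RNA. A further 4 cells in each library had Klrd1 (CD94) as their only rule gene, and 1 cell of the library labelled Utx-deleted fell in none of these. By subsets cut from the rule genes alone, 14 control and 5 other cells were led by CD3 (36.8% and 14.3%), 17 and 11 by Klrd1 and Ncr1 (44.7% and 31.4%), and 7 and 18 had both (18.4% and 51.4%).

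The 8 cells with Klrd1 alone go against the T and NK label. They had Klrd1 at 6 to 12 UMIs in the control library and 6 to 10 in the other, with no UMI of the other 5 rule genes. Their leading antigen-presentation genes were high, with Cd74, the invariant chain of MHC class II, at 137 to 220 and 97 to 251 UMIs and H2-Aa at 109 to 134 and 81 to 187 UMIs. The 8 genes of the dendritic cell list summed to 26684 and 28006 CPM, against 90.6 and 119 in CD3-bearing cells and 347 and 410 in NK-like cells. The CD11b tag ranged from 34 to 394 UMIs in the 4 control cells and was at 12, 20, 271 and 557 in the 4 others. It reached at most 26 in CD3-bearing cells and 76 in NK-like cells, so the ranges overlapped. The NK receptor gene Klrk1, outside the rule, went the other way. It was seen in 4 of 4 control cells with Klrd1 alone (1 to 12 UMIs) and 3 of 4 others (up to 8 UMIs). In other barcodes under the granule limits it was seen in 2.37% and 5.31%. All values for CD3-bearing and NK-like cells below leave these 8 cells out.

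**Figure D1:**
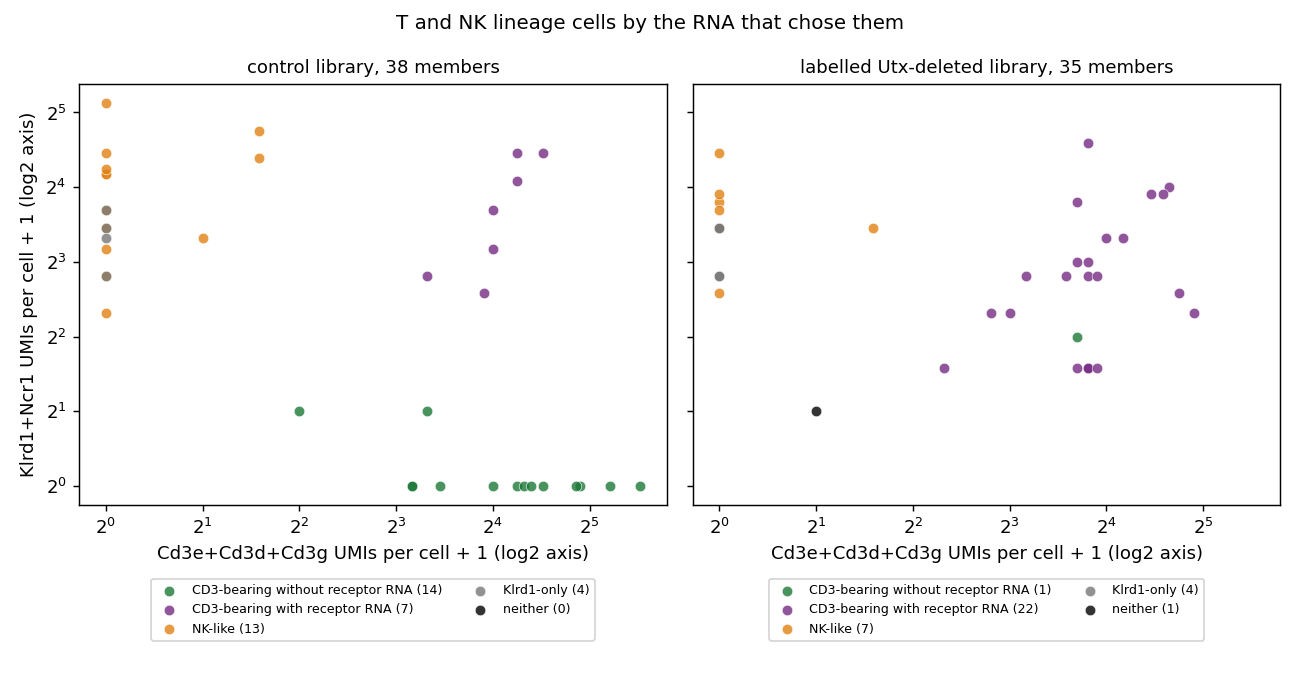
UMIs of Klrd1 and Ncr1 (vertical) against UMIs of Cd3e, Cd3d and Cd3g (horizontal) in each T or NK lineage cell, plus 1 on log2 axes, with the control library (38 cells) at left and the library labelled Utx-deleted (35 cells) at right. Colours mark the kinds of cell, and control cells with CD3 but no receptor RNA (14) lie on or near the bottom edge, while the 1 such cell of the other library lies higher, at 3 UMIs of Klrd1.

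CD3-bearing cells of the 2 libraries differed in NK receptor RNA. Klrk1, Klrc1, Klrc2, Klre1 and Klrb1c took no part in the rule. All of them were at 0 in 14 of 21 control cells (66.7%, 43.0% to 85.4%) and in 1 of 23 cells of the library labelled Utx-deleted (4.35%, 0.110% to 21.9%). The difference was -62.32 percentage points, with combined exact limits of -81.54 and -32.85. It had the same sign for each hashtag, at 11 of 15 against 0 of 15 Hashtag1 cells and 3 of 6 against 1 of 8 Hashtag2 cells, although the Hashtag2 difference of -37.5 points had limits of -77.58 and 17.91. The 7 control cells that did carry this RNA held 2 to 52 UMIs (median 24), and the 22 cells of the other library 2 to 63 (median 31), so the ranges of carriers overlapped nearly in full.

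Median depth was 8842 UMIs in control CD3-bearing cells, 9088.5 in the control cells without receptor RNA and 7247 in the library labelled Utx-deleted. With each cell thinned to 2000 UMIs, 14 of 21 and 2 of 23 were without receptor RNA. When cells were chosen by at least 5 CD3 UMIs in place of the rule, they were 13 of 20 and 1 of 22. Without the granule limits as well, 4 further barcodes of the library labelled Utx-deleted entered, with 8.30% to 33.4% of UMIs from granule genes, and the counts were 13 of 20 and 3 of 26.

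**Figure D2:**
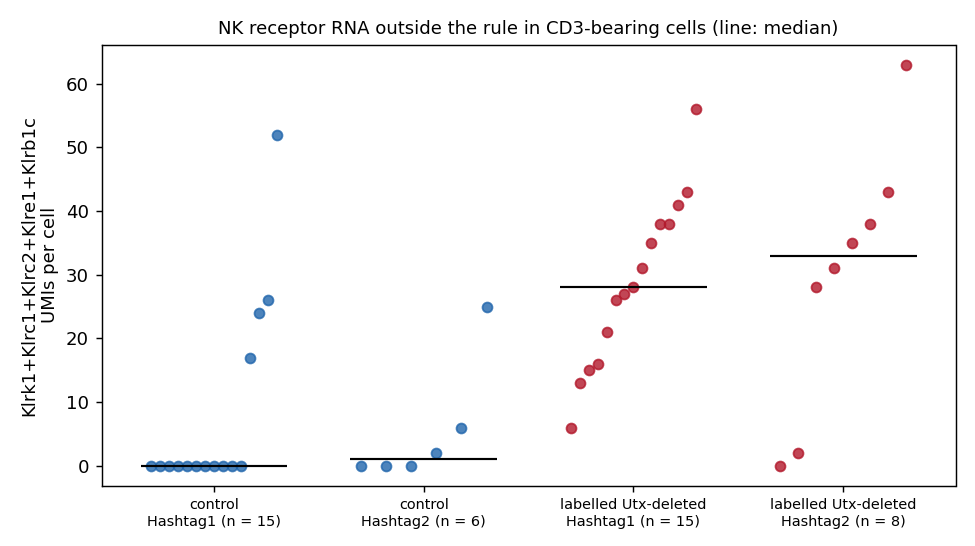
Summed UMIs of Klrk1, Klrc1, Klrc2, Klre1 and Klrb1c in each CD3-bearing cell, by library and hashtag, with a line at the median. In the control library 14 of 21 cells sit at 0, and in the library labelled Utx-deleted 1 of 23.

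Across all CD3-bearing cells, 2618 genes had enough UMIs to be compared. Of these, 4.24% (111) exceeded the control level by 2-fold or more and 4.93% (129) lay 2-fold or more below it, with a median log2 ratio (Utx-deleted over control) of -0.04. Among the NK receptors outside the rule, 16 of 17 measured genes were higher and 14 were past 2-fold, with a median log2 ratio of 1.80. This is the same difference as the cell count above, seen gene by gene, and the list was chosen with earlier results of these data known. Klrk1 had 36 UMIs in 6 control cells and 240 in 21 cells of the other library, a log2 ratio of 2.74 (2.26 to 3.32). Klre1, a receptor that pairs with other lectin-like chains, had 27 and 132 UMIs (2.28, 1.72 to 2.98), and Klrc1, the inhibitory NKG2A, 32 and 111 (1.80, 1.25 to 2.44). Klrb1c had 31 and 106 (1.78), and Cd226, the activating receptor DNAM-1, 52 and 152 (1.56). Cd160 was the exception at 39 and 20 UMIs (-0.90, -1.78 to -0.12), with a UMI in 12 cells of each library.

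Ly49 genes, which encode receptors for MHC class I, were seen in more CD3-bearing cells of the library labelled Utx-deleted. At least 1 of the 11 Klra genes in the files had a UMI in 6 of 21 control cells and 18 of 23 of the other library, with medians of 0 and 3 genes per cell. Among control cells without receptor RNA the count was 2 of 14. Among cells with it the counts were 4 of 7 and 18 of 22, with medians of 1 and 3 genes. The difference thus also depends on the share of cells without receptor RNA. Klra7 had 27 UMIs in 2 control cells and 125 in 14 cells of the other library, and Klra9 2 and 58. Members of this family are close in sequence, so the split of counts between them is uncertain. In NK-like cells the counts were 11 of 13 and 4 of 7.

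Several further lists had more genes higher than lower. Of the 4 cytokine and chemokine genes measured, 3 were past 2-fold higher and none lower (median 1.52). Ccl5, a chemokine of memory T and NK cells, had 353 UMIs in 12 of 21 control cells and 935 in all 23 of the other library (log2 ratio 1.44, 1.26 to 1.62), a difference that was small among Hashtag2 cells (0.18). Xcl1, the ligand of XCR1 on cross-presenting dendritic cells, had 60 UMIs in 8 cells and 180 in 20 (1.60, 1.19 to 2.07). Cd44, an adhesion receptor raised on memory T cells, had 10 and 51 UMIs (2.28), and Id2, which restrains E proteins, 51 and 141 (1.48). All 7 transcription factors of NK cells were at or above the control level and 4 were past 2-fold (median 1.13), among them Tbx21 (T-bet) at 14 and 31 UMIs and Eomes at 8 and 23. The 14 control cells without receptor RNA held 6 of the control UMIs of Tbx21 and 3 of Eomes. Both ratios thus also depend on the share of such cells. The cytotoxic list was less uniform, with 4 of 6 measured genes higher, 2 lower and 2 past 2-fold higher (median 0.25, limits -0.19 to 2.62). Tox at 427 and 486 (0.22) and Runx3 at 36 and 36 (0.03) were nearly level. Of 8 measured cytokine receptor genes, 6 were higher, 3 of them past 2-fold, and 2 were lower (median 0.59, limits -0.75 to 2.24). Il18r1 and Il12rb2, receptor chains for inflammatory cytokines, had 13 and 50 (1.90) and 7 and 36 UMIs (2.24).

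Naive and central memory genes were mixed. Of 5 measured, 3 were past 2-fold lower and 2 were higher, short of 2-fold (median log2 ratio -1.33, limits -2.38 to 0.47). Lef1, a factor of naive T cells, had 172 UMIs in 18 control cells and 66 in 14 cells of the other library (log2 ratio -1.33, -1.78 to -0.93). Klf2, which promotes exit into blood, had 111 and 20 UMIs (-2.38, -3.20 to -1.74), and its target S1pr1 16 and 3 (-2.05). Il7r went opposite ways for the 2 hashtags, at 47 and 64 UMIs in all (0.47). Outside this list, Themis, a regulator of T cell receptor signalling in thymocytes, had 107 and 12 UMIs (-3.02, -4.12 to -2.26), and Sox5, a transcription factor, had 255 and 27 (-3.16). Most control UMIs of these genes lay in the 14 control cells without receptor RNA, which held 157 of 172 for Lef1, 102 of 111 for Klf2, 92 of 107 for Themis and all 255 for Sox5. Among cells with receptor RNA, Lef1 and Sox5 were not lower, and the Klf2 intervals overlapped (values below). Id3 had 107 and 8 (-3.55, -4.96 to -2.68), with 99 of the 107 in the control cells without receptor RNA. By hashtag, 99 and 1 lay in Hashtag1 cells and 8 and 7 in Hashtag2 cells, so this ratio rests on Hashtag1 (-5.21, against -1.08). In the 14 control cells without receptor RNA, Lef1 was seen in all 14, Themis and Klf2 in 13 each, and Sox5 and Id3 in 10 each. Of 8 memory and effector genes measured, 6 were higher and 5 past 2-fold (median 1.26), but Ly6c2 had 55 and 10 UMIs (-2.31).

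Genes of T cell receptor signalling were mixed. Cd247, the zeta chain, had 116 and 94 UMIs (log2 ratio -0.27, -0.68 to 0.14), the kinase Lck 61 and 77 (0.37) and Tcf7, a T-lineage factor, 99 and 73 (-0.40, -0.86 to 0.05). Of 14 T-cell signalling genes measured, 1 was past 2-fold higher and 4 lower (median -0.12). Those lower included the costimulatory receptor Cd28 at 38 and 13 UMIs (-1.44), Cd5 at 22 and 7 (-1.49) and the adaptor Lat at 23 and 6 (-1.74). The kinase Txk was higher at 49 and 98 UMIs (1.02), but lower among Hashtag2 cells (-0.99).

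The receptor chains differed over all CD3-bearing cells of the 2 libraries. The alpha-chain constant gene Trac had 94 UMIs in 18 of 21 control cells and 39 in 13 of 23 cells of the other library (log2 ratio -1.21, -1.81 to -0.68), while Trbc1 had 114 and 148 (0.41) and Trbc2 236 and 151 (-0.61). In the control library 16 CD3-bearing cells had Trac without the delta-chain gene Trdc, 1 had Trdc alone, 2 had both and 2 neither. In the library labelled Utx-deleted these counts were 7, 4, 6 and 6. Of the 94 control Trac UMIs, 73 lay in the 14 cells without receptor RNA, 13 of which had Trac without Trdc. Among cells with receptor RNA, Trac was seen in 5 of 7 and 13 of 22, and Trac without Trdc in 3 and 7. Trac without Trdc was seen in 13 of 15 and 4 of 15 Hashtag1 cells. In Hashtag2 cells the counts were 3 of 6 and 3 of 8. No CD3-bearing cell lacked RNA of all 4 constant genes Trac, Trdc, Trbc1 and Trbc2. Of the NK-like cells, 2 of 13 and 0 of 7 lacked all 4, so this RNA does not separate the kinds. Trdc without Trac was seen in 4 of 13 and 0 of 7 NK-like cells. Counts at the 3′ end do not show whether a receptor gene is rearranged, so these cells are not assigned to alpha-beta or gamma-delta T cells. Cd4 had no UMI in any T or NK lineage cell, and Cd8a had 8 and 2 UMIs. Foxp3, the factor of regulatory T cells, was seen in 1 control cell, with 7 UMIs.

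**Figure D3:**
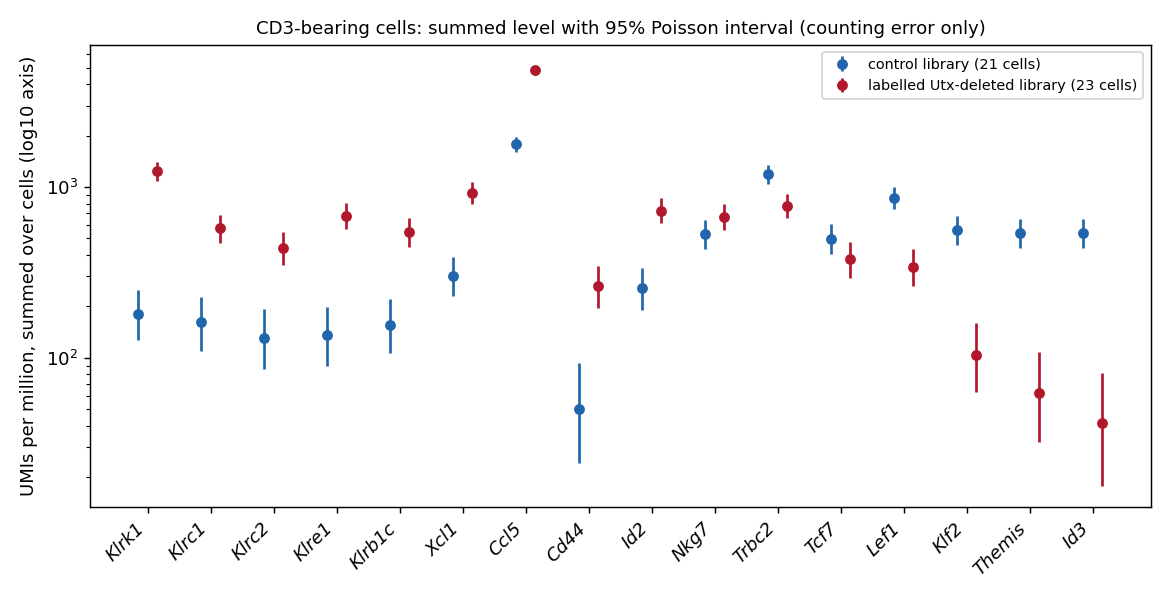
Level of 16 genes in CD3-bearing cells, summed over 21 cells of the control library (blue) and 23 of the one labelled Utx-deleted (red), in CPM on a log10 axis, with exact Poisson intervals for counting error only. The 5 NK receptor genes, Xcl1, Ccl5, Cd44 and Id2 are higher in the library labelled Utx-deleted, and Nkg7 and Tcf7 have overlapping intervals. Trbc2, Lef1, Klf2, Themis and Id3 are lower (among cells with receptor RNA, Lef1 is not lower and the Klf2 and Id3 intervals overlap).

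**Figure D4:**
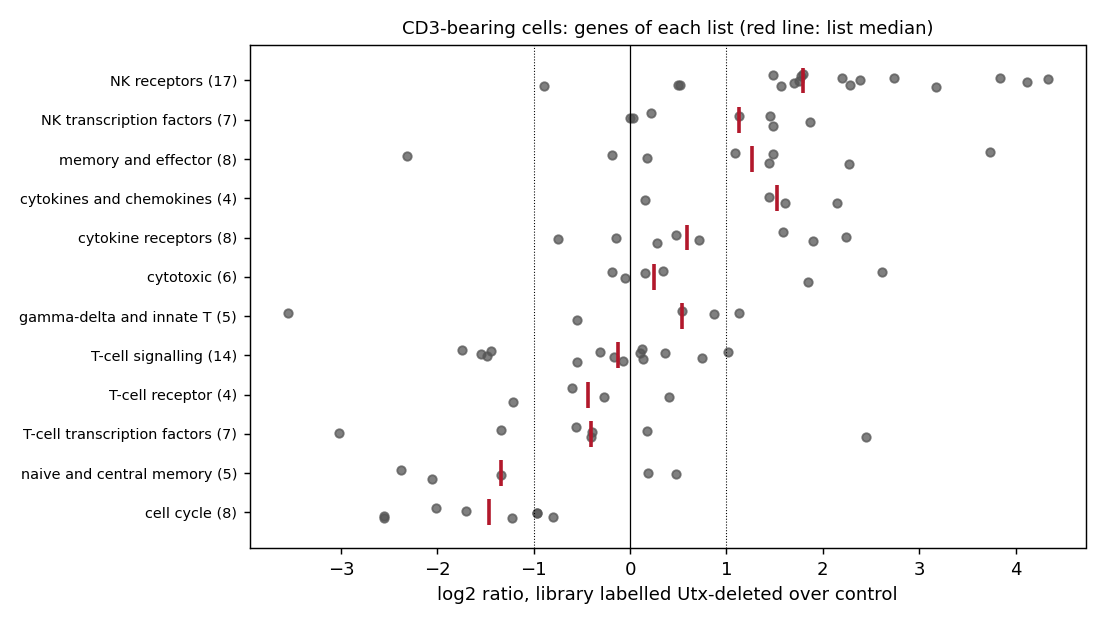
Log2 ratio of the library labelled Utx-deleted over control in CD3-bearing cells, 1 point per gene with the number of genes in brackets, a red line at each list's median and dotted lines at 2-fold. Of the lists drawn, the NK receptor list has the highest median (1.80) and the cell cycle list the lowest (-1.47), with 128 of its 156 control UMIs in 1 of 21 cells; outside cells with 10 or more of these UMIs, the counts were 28 and 13. Among the lists not drawn, the coreceptors had 1 measured gene at -1.55.

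By the naming rule (the largest ratios in CD3-bearing cells with one sign for both hashtags), the higher genes included Styk1, Gm36723, Klra9, Klrb1f, Klrk1, Klri1 and Samd3. Styk1 had no UMI in the control cells and 41 in 5 cells of the other library. This is 13.99-fold higher with the control set to a floor of 3 counts over the group, with a lower log2 limit of 3.44 by its counting interval. Klrb1f had 7 and 55 UMIs (log2 ratio 2.84, 1.87 to 4.39). Samd3 had 27 and 147 UMIs (2.44, 1.88 to 3.13). The lower genes were Plxdc2, Id3, Itgb7, Sox5, Themis, Lgals1, Itih5 and Hdac9. Plxdc2 had 59 UMIs in 9 control cells and none in the other library, 19.2-fold lower with that library set to the same floor (upper log2 limit -3.92). Itgb7, the integrin beta chain used in homing to the gut, had 38 UMIs in 19 of 21 control cells and 3 UMIs in 2 of 23 (-3.25, -5.97 to -1.97). Gm36723 and Styk1 had nearly all their UMIs in Hashtag1 cells, 56 of 57 and 39 of 41.

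Among CD3-bearing cells that carried receptor RNA, 7 control and 22 of the other library, the receptor values lie closer by construction, since the control cells left out had none of this RNA. Klrc1 was at 502 and 590 CPM, Klrc2 at 408 and 452, Klrb1c at 487 and 564, and Klre1 at 424 and 702. Xcl1 was at 879 and 957 CPM and Ccl5 at 4129 and 4955. Klrk1 remained higher, at 565 CPM (396 to 782) and 1276 CPM (1120 to 1448). Intervals also stayed apart for Klra9, at 31.4 CPM (3.80 to 113) and 308 CPM (234 to 399). The same held for Klrb1f at 94.2 CPM (34.6 to 205) and 292 CPM (220 to 381), and for Samd3 at 424 CPM (279 to 617) and 782 CPM (660 to 919). Styk1 was at 0 (upper limit 57.9 CPM) and 218 CPM (156 to 296), and Gm36723 at 15.7 CPM (0.397 to 87.5) and 303 CPM (230 to 393). The Klri1 intervals overlapped. Itgb7 remained lower, at 157 CPM (75.3 to 289) and 5.32 (0.135 to 29.6). Lgals1 also remained lower, at 204 CPM (109 to 349) and 10.6 CPM (1.29 to 38.4), while the Itih5 intervals overlapped. Plxdc2 was at 110 CPM (44.2 to 226), all in 1 control cell, and at 0 in the 22 others (upper limit 19.6 CPM). Klf2 was at 141 CPM (64.6 to 268) and 63.8 CPM (32.97 to 111) and Id3 at 126 CPM (54.2 to 247) and 31.9 CPM (11.7 to 69.4), lower but with overlapping intervals. Themis was at 235 CPM (132 to 388) and 53.2 CPM (25.5 to 97.8), with all 15 control UMIs in 1 cell. The lower direction was not kept by Lef1, at 235 CPM (132 to 388) and 314 CPM (239 to 405), with overlapping intervals. Sox5 had no UMI in these 7 control cells (upper limit 57.9 CPM) and 17 UMIs in the 22 others (90.4 CPM, 52.7 to 145), and Hdac9 was at 78.5 CPM (25.5 to 183) and 149 CPM (98.9 to 215), both again with overlapping intervals. With 7 control cells these values rest on very few cells.

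The antibody against B220, the CD45R form of the Ptprc product, gave a protein-level reading that the rule did not use. Control CD3-bearing cells without receptor RNA had a median of 11.5 tag UMIs, with the highest at 45, and other barcodes under the granule limits had medians of 17 and 15. Cells with receptor RNA had medians of 47 (range 10 to 813) in the control library and 180.5 (6 to 1317) in the other. Counts above 45, a limit taken from the highest of the 14 control cells without receptor RNA, were seen in 4 of 7 and 14 of 22 of these cells. The ranges of control cells with and without receptor RNA overlapped. The library labelled Utx-deleted has 1 CD3-bearing cell without receptor RNA, at 24 tag UMIs, and so no group to compare its 22 cells with.

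In NK-like cells B220 was lower in the library labelled Utx-deleted. Their median was 152 tag UMIs (13 to 946) in the control library, with 10 of 13 cells above 45, and 19 (4 to 32) in the library labelled Utx-deleted, with 0 of 7. Their B220 share of all tag counts was 16.6% and 5.96% at the median, and their total tag counts also differed, with medians of 933 and 335. Ptprc RNA did not go down with the tag, at 2624 CPM (2355 to 2914) and 3930 CPM (3380 to 4544), although counts at the 3′ end do not tell CD45 forms apart.

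**Figure D5:**
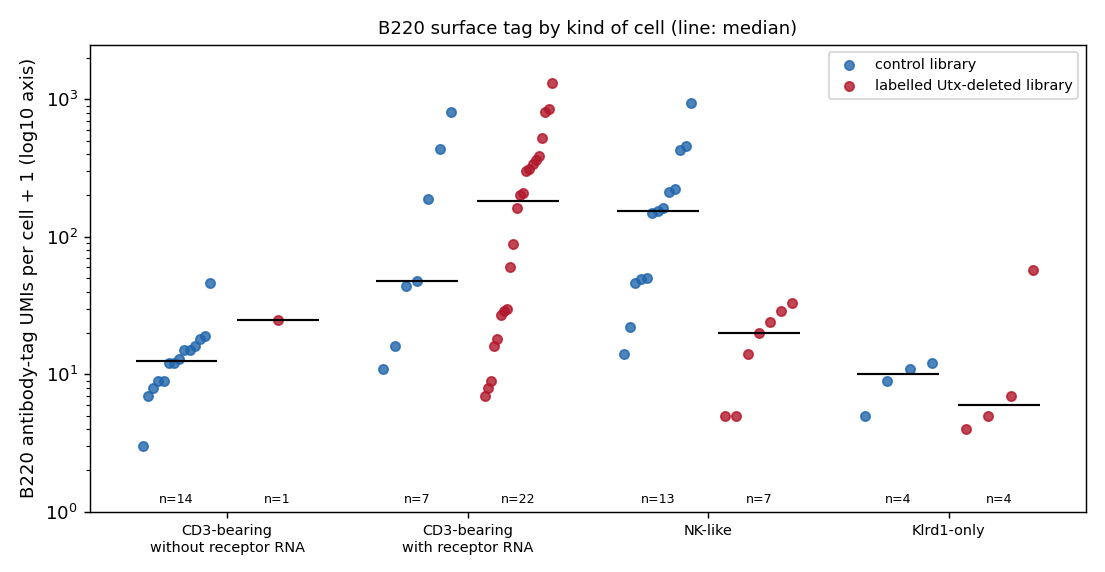
B220 antibody-tag UMIs plus 1 (log10 axis) in each cell by kind, control in blue and the library labelled Utx-deleted in red, with a line at the median. CD3-bearing cells with receptor RNA and control NK-like cells reach 813 and 1317 (by library) and 946, while control CD3-bearing cells without receptor RNA stay at or under 45 and NK-like cells of the library labelled Utx-deleted at or under 32.

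In NK-like cells, 13 and 7, the effector genes split. Gzma, a granule protease of cytotoxic cells, had 70 UMIs in 9 of 13 control cells and 8 in 3 of 7 (528 and 173 CPM, log2 ratio -1.46, -2.88 to -0.55), with little difference among Hashtag2 cells (-0.07), and had none in any CD3-bearing cell. Gzmb, another granule protease, was low and went the other way, with 3 UMIs in 2 control cells and 8 in 3 cells (22.6 CPM, 4.66 to 66.1, and 173 CPM, 74.6 to 340). Prf1, which encodes the pore-forming perforin, was at 204 (134 to 296) and 130 CPM (47.5 to 282), with overlapping intervals. Nkg7, a granule membrane protein, was at 1304 and 605 CPM (-1.07, -1.74 to -0.53). Ccl5 was higher in the library labelled Utx-deleted, at 1681 and 5204 CPM (1.63, 1.36 to 1.90), as was Xcl1 at 271 and 1101 (2.01, 1.38 to 2.68). Lgals1 had 110 and 7 UMIs (-2.28, -3.80 to -1.36), and Klf2 44 and 5 (-1.39). The 5 receptor genes outside the rule summed to 21 to 62 UMIs per control cell and 15 to 44 per cell of the other library, and no cell of this kind lacked them.

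Over all 73 cells, mixed kinds included, 4262 genes were compared, of which 2.6% (111) exceeded the control level by 2-fold or more and 4.13% (176) lay 2-fold or more below it. The named higher genes were Klra3, Klra9, Klra6, Setbp1, Styx, Tmtc2, Bcl2a1b and Vopp1. Klra3 had 11 and 63 UMIs (2.80) and Setbp1, a SET-binding protein, 96 and 296. The named lower genes were Hist1h1b, Hist1h2ap, Kif11, Cenpp, Top2a, Id3, Cmah and H2afx. Hist1h1b, a linker histone of dividing cells, had 272 and 7 UMIs (-4.71), and Top2a 95 and 7 (-3.20). Of 11 cell cycle genes, 9 were measured, and all 9 were past 2-fold lower (median -2.42).

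Most of these UMIs lay in a few cells. Cell cycle genes held 422 UMIs in the control cells and 52 in the other library, but 3 of 38 control cells had 10 or more, with up to 155, against 1 of 35 with 30. The other 35 control cells had 45 UMIs in all and the other 34 cells 22, and the medians were 1 and 0 per cell. Among the control cells with 10 or more, 1 was CD3-bearing and 2 were NK-like. Mki67, a marker of proliferation, was seen in 4 and 2 cells. The list's difference thus rests on 3 cells against 1.

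Marker lists of other cell types were low in CD3-bearing and NK-like cells. B-cell genes summed to 35.2 and 0 CPM in CD3-bearing cells and 15.1 and 0 in NK-like cells. Genes of neutrophils outside the rule summed to 231 and 345 CPM in CD3-bearing cells and 256 and 216 in NK-like cells, and 4 of 5 measured were higher in the library labelled Utx-deleted (median 0.52 in CD3-bearing cells), 2 of them past 2-fold. All 4 measured monocyte genes were also higher there, none past 2-fold (median 0.41). Their part in the differences above was not tested. The T and NK lineage cells differed from the 1297 other barcodes under the granule limits in genes that had no UMI in the others, though none of these genes was seen in every one of the 73 cells. Xcl1 was seen in 44, Samd3 and Klrc2 in 46 each, Klrc1 in 37 and Klra4 in 7. Gm2682, a long noncoding RNA gene on chromosome 15, had 1237 UMIs in 58 of the 73 cells and 2 UMIs in the others. These genes were picked by this same ratio, and the other barcodes had failed the rule. The values therefore describe the choice and test nothing.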

How the data were processed

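Per the submitters' processing notes, Cell Ranger 7.1.0 and the build mm10 were used. Deposited per barcode are whole-number UMI counts for 32285 genes and 15 antibody tags, not normalized by the authors. Cell calling by the authors is not given in the sources used here. Barcodes with both hashtags at 100 or more UMIs and within 5-fold were dropped. The cells and the gene lists were chosen with earlier results of these data known, and the kinds of cell were set after the values were seen.

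UMIs were summed over cells per library and scaled to counts per 1e+06 (CPM), with Python 3.11.15, numpy 2.4.6, scipy 1.17.1 and scanpy 1.11.5. Log2 ratios added 1 UMI to each sum. Genes compared had at least 30 UMIs over both libraries, in at least 5 cells, none with over 0.5 of the UMIs, and were outside the rule. List genes had at least 10. Intervals were exact (95%): Poisson for levels, binomial (Clopper-Pearson) for shares, conditional binomial for ratios. Limits of differences between shares combined both binomial limits. The named genes comprise 8 at each end of the ratios past 2-fold that had the same sign for both hashtags and an interval past 0, the 15 genes highest over other low-granule cells, Kdm6a and its relatives, and list members. Some genes that this rule names are not reported here. Promoter windows are those before RefSeq starts on GRCm38.p6, which can differ from GENCODE M21 starts on GRCm38; GENCODE gave only the chromosome of Gm2682. The comparison of all 73 cells was tested on simulated data: it found 86.0% of 200 genes set to 4-fold, and 57 of 4120 unchanged genes passed 2-fold. The simulated cells were drawn from 1 pooled profile with counting error alone. They held no kinds of cell and no other variation between cells, so these rates do not carry over to the real counts of genes past 2-fold. Barcodes with both hashtags aside, doublets were treated only in an alternative, by Scrublet scores.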

Additional observations from a re-analysis of the deposited data

How the results depend on the processing

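Of 147 values under alternatives, 127 stayed in their limits or within 1.5 times the count, 20 moved, and none with limits clear of 0 changed sign. Values near 0 changed sign in 2 cases: the difference in the share of T and NK lineage cells was 0.0754 points when thinned to 2000 UMIs (limits -0.1612 to 0.3146), and the T-cell signalling median over all cells was -0.04 with any UMI. The counts of genes past 2-fold depended most on the settings. Over all cells they were 111 higher and 176 lower, against 22 and 18 when thinned to 2000 UMIs, 37 and 58 with Hashtag2 cells only, 276 and 409 with a minimum of 15 UMIs, 23 and 27 with 100 UMIs, and 437 and 564 at 1.5-fold. Of the calls past 2-fold, 38.7% were higher, and 55% when thinned. In CD3-bearing cells they were 111 and 129, against 24 and 50 with Hashtag2 cells only, 300 and 349 with a minimum of 15 UMIs, 27 and 23 with 100 UMIs, and 331 and 409 at 1.5-fold. The higher share of these calls was 46.2%, 32.4% with Hashtag2 cells only, 52.4% with Hashtag1 cells only and 54.8% with TMM scaling (131 higher and 108 lower). With centred log-ratios, the CD48 tag's log2 difference between T and NK lineage cells and the other low-granule barcodes went from 0.15 to 0.30 in the control library and from 0.31 to 0.48 in the other. The share of CD3-bearing cells without receptor RNA differed by -37.5 to -73.33 points over all alternatives. Settings for CD3-bearing cells were chosen after seeing the data.

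No paired analysis was possible because each group has 1 library. The comparison within a subset of the rule genes and the one with the same subset weights were not run, since no subset had 20 cells in each library and only 1 had 10. The 73 cells, at most 23 of a kind in a library, limit every value.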
